A study of Homo sapiens with 6 samples.

Results

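Counts were examined for 10 genes of extracellular proteolysis in cardiomyocytes differentiated from the established human line WTC11, which consists of induced pluripotent stem cells. The members were the matrix metalloproteinases MMP2, MMP9, MMP14 and MMP15, the tissue inhibitors of metalloproteinases TIMP1, TIMP2, TIMP3 and TIMP4, the secreted protease ADAMTS1 and the carboxypeptidase CPA4. They were taken by symbol, and all 10 were among the 38557 genes listed. The list was selected on, among other things, the fitted difference of CPA4 between media, so every difference of a member between media is given below as a description and not as a test.

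The study cultured these cells in 1 of 2 backbone media and sequenced messenger RNA from each culture. In the first group, cells were kept in RPMI plus B27, a serum-free supplement, and in the second in DMEM plus fatty acids. Each group held 3 biological replicates, numbered 1 to 3 in both media, with wild-type cells of the same line throughout. What the media contained, how long cells spent in them and whether replicates were separate differentiations are not given in the labels, so p values below measure only the spread between these 6 libraries.

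Matrix metalloproteinases are zinc enzymes that cut collagens and other matrix proteins, and most are made as inactive precursors. MMP2 and MMP9 are the secreted gelatinases, while MMP14 and MMP15 are anchored in the membrane, and MMP14 activates the MMP2 precursor in a complex that holds TIMP2. The TIMPs block the active site of these enzymes, and in the heart matrix turnover is largely ascribed to fibroblasts and inflammatory cells. ADAMTS1 cuts proteoglycans such as versican. CPA4 is a zinc carboxypeptidase that removes single amino acids from the end of peptides. It belongs to another protease family and is not a target of the TIMPs.

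Promoter sequences from RefSeq (GRCh38.p14) matched 6 of the 10 members. No entry was matched for MMP2, MMP9, TIMP2 and ADAMTS1. The 250 bases before the gene start are shown for CPA4 and MMP14, whose levels were lower in every DMEM plus fatty acids library. They are also shown for MMP15 and TIMP3, whose levels over the 6 libraries were the most alike of all member pairs. TIMP1 was lower in every DMEM plus fatty acids library too, but its sequence is not shown. Capitals mark matches, on both strands, to an AP-1 motif (TGANTCA, its own reverse complement), a TATA motif (TATAAA) and a GC box (GGGCGG). The windows are chr7:130292911-130293160 for CPA4, chr14:22836335-22836584 for MMP14, chr16:58025504-58025753 for MMP15 and chr22:32801455-32801704 for TIMP3, all on the plus strand.
CPA4: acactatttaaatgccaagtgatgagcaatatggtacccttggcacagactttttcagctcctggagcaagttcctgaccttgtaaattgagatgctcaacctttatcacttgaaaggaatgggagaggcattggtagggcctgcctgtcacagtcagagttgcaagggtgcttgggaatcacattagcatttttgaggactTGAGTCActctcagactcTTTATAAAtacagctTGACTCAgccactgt
MMP14: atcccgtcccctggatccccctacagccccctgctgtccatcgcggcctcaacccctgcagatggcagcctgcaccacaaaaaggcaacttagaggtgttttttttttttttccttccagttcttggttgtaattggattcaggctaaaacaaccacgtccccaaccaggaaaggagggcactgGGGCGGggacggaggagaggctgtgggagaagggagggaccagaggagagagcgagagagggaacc
MMP15: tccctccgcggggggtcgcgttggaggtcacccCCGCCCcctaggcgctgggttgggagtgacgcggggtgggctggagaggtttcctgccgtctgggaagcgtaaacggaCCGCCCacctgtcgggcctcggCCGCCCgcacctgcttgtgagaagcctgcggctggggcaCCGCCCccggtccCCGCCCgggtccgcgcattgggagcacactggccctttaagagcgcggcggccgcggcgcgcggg
TIMP3: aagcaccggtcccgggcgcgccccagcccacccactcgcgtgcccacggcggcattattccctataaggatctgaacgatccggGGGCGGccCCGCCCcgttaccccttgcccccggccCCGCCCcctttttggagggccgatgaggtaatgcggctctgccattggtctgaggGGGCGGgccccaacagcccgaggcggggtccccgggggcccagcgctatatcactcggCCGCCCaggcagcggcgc
The CPA4 window held 2 AP-1 matches, TGAGTCA beginning 48 bases and TGACTCA beginning 15 bases before the start, and a TATA match on each strand 30 and 28 bases before it, which overlap each other. No GC box was found there, and 44.4% of its bases were G or C. The MMP14 window held 1 GC box and neither other motif. The TIMP1 window, not shown, held 2 GC boxes and neither other motif, with 64.8% G or C. MMP15 and TIMP3 each held 5 GC boxes in windows with 74.8% and 72.4% G or C. Of all 35116 promoters with a window of this length, 6.57% held the AP-1 motif, 10.7% the TATA motif and 42.6% a GC box.

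Gene rows held 23232324 to 31035389 counts per library. Summed cardiomyocyte markers (10 genes such as TNNT2 and MYH6) reached 28832 to 35386 CPM (counts relative to library size, with sizes adjusted by TMM) in RPMI plus B27 and 23216 to 33123 in DMEM plus fatty acids. Single genes of that list went apart. MYH7, a slow myosin heavy chain, averaged 9638 ± 3231 CPM (SD, n = 3) in RPMI plus B27, against 4000.5 ± 1862 CPM with fatty acids. ACTN2, a Z-disc protein, averaged 2218 ± 474 and 1109.5 ± 379.5 CPM, and MYH6, the other cardiac heavy chain, 4758 ± 1119 and 8652.5 ± 1931 CPM. The media did not overlap for these 3 genes or for TNNI1 of the same list, where 25.6% of all tested genes did not overlap. MYH7, ACTN2 and MYH6 did not pass edgeR's quasi-likelihood test with Benjamini-Hochberg adjustment (adjusted p = 0.163, 0.155 and 0.166). With the replicate block MYH7 and ACTN2 did (0.0359 and 0.0494), where 4.78% of all tested genes were called. Summed fibroblast and stromal markers (12 genes) reached 4339 to 8408 CPM in RPMI plus B27 and 758 to 1958 in DMEM plus fatty acids, with 10 of 11 tested genes lower and 6 of these called, where 49.0% of all tested genes were lower and 1.07% were called lower. No gene of that list was at 0 in all 6 libraries, and DDR2, a collagen receptor, differed by 0.31 on the log2 scale in the other direction without passing. FAP, also of that list, was too low to test, with 16, 2 and 1 raw counts in RPMI plus B27 and 0 in each DMEM plus fatty acids library. Smooth muscle markers (6 genes, all tested) summed to 1603.5 to 2039.7 against 357 to 1176.5 CPM, with 6 lower and 1 called, beside the same shares of all genes. Epicardial markers (6 genes) summed to 6.93 to 13.6 against 2.41 to 5.39 CPM. Endothelial markers (6 genes) summed to 29.7 to 239 against 115 to 464 CPM, of which KDR made up most, while CDH5 and PECAM1 averaged 0.264 and 0.121 CPM in RPMI plus B27. Leukocyte markers (5 genes) summed to at most 2.57 CPM and pluripotency markers (4 genes) to at most 1.70 CPM in any library. In these bulk samples, fewer cells of a type and less RNA per cell cannot be told apart.

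MMP2 and MMP14, the gelatinase and its membrane-bound activator, were both lower in every DMEM plus fatty acids library, by a similar factor. MMP2 (chr16:55478830-55506691, plus strand) had 128, 95.0 and 76.1 CPM in RPMI plus B27 replicates 1 to 3 and 15.1, 24.8 and 31.1 CPM in DMEM plus fatty acids. Its means were 99.7 ± 26.3 and 23.7 ± 8.04 CPM (SD, n = 3 each), a log2 difference of -2.07 ± 0.30 (SE). MMP14 (chr14:22836585-22847758, plus strand) had 139.56, 90.6 and 73.8 CPM against 12.4, 25.3 and 36.8 CPM. Its means were 101 ± 34.2 and 24.8 ± 12.2 CPM (SD, n = 3 each), with a log2 difference of -2.03 ± 0.41 (SE). For both genes the libraries of the 2 media did not overlap. Replicate 1 was the highest of RPMI plus B27 and the lowest of DMEM plus fatty acids for both. The spread of MMP14 within media was the wider of the pair.

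MMP15, a membrane-type enzyme like MMP14, was the most abundant member in all 6 libraries. It (chr16:58025754-58046901, plus strand) had 984, 1295 and 1329.6 CPM in RPMI plus B27 and 759, 1016 and 857 CPM in DMEM plus fatty acids. The media overlapped, since RPMI plus B27 replicate 1 lay below DMEM plus fatty acids replicate 2. Its means were 1203 ± 191 and 877 ± 129.8 CPM (SD, n = 3 each), with a log2 difference of -0.46 ± 0.18 (SE). MMP9 (chr20:46008908-46016561, plus strand), the other gelatinase, was barely detected. It had raw counts of 9, 4 and 4 in RPMI plus B27 and 2, 5 and 3 in DMEM plus fatty acids, which is near the 3 counts that a count of 0 allows, and it was not tested. In addition, 18.4% of its annotated exon bases (GENCODE 29) overlap the antisense gene SLC12A5-AS1.

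**Figure D1:**
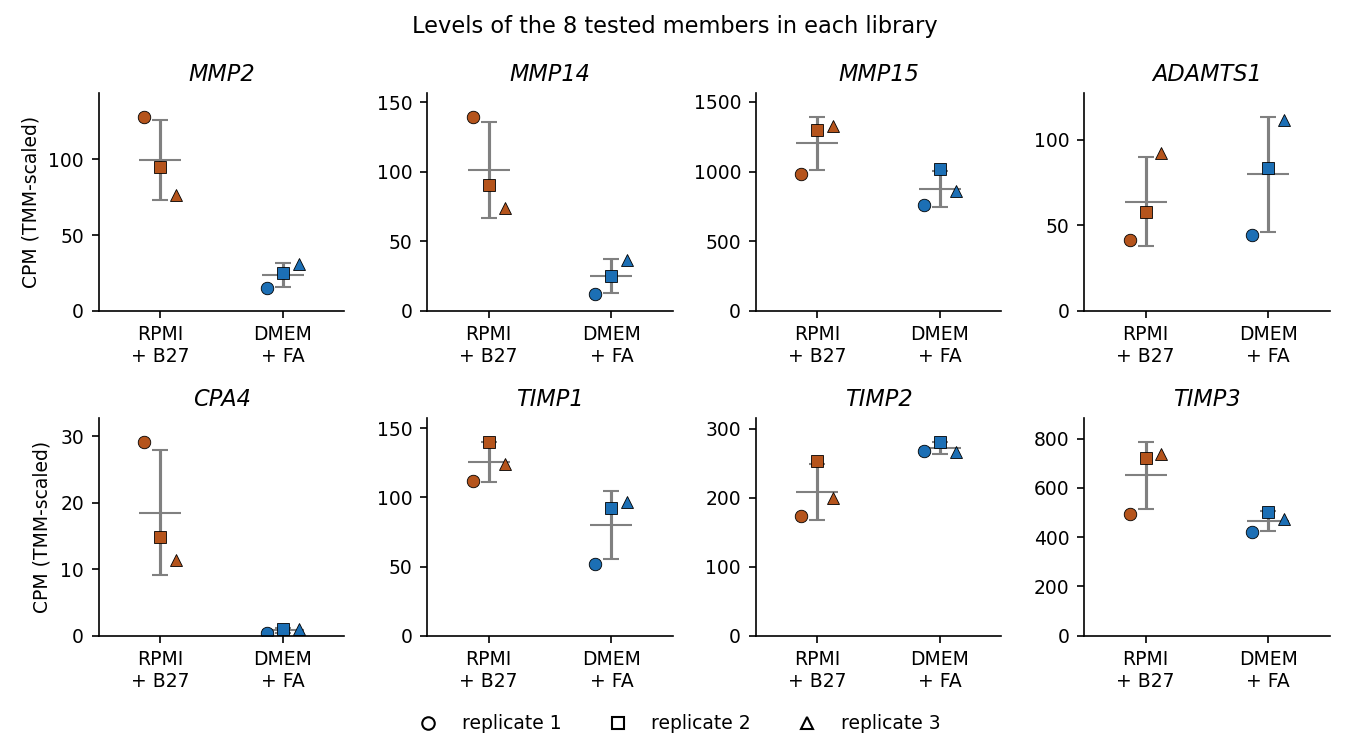
CPM scaled by TMM (vertical axes, linear, each from 0) of the 8 tested members in the 3 RPMI plus B27 and 3 DMEM plus fatty acids (FA) libraries; symbols mark the replicate number and grey bars the mean ± SD. MMP2, MMP14, CPA4 and TIMP1 lie lower in every DMEM plus fatty acids library, TIMP2 lies higher in every one, and MMP15, TIMP3 and ADAMTS1 overlap.

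The inhibitors did not share a direction. TIMP1 (chrX:47582436-47586789, plus strand), a soluble inhibitor with growth-factor-like activity, had 112, 140.35 and 124 CPM in RPMI plus B27 and 51.8, 92.3 and 96.4 CPM in DMEM plus fatty acids. The media did not overlap, and DMEM plus fatty acids replicate 1 stood lowest. Its means were 126 ± 14.3 and 80.2 ± 24.7 CPM (SD, n = 3 each), with a log2 difference of -0.65 ± 0.24 (SE). TIMP2 (chr17:78852977-78925387, minus strand), which both inhibits MMP2 and takes part in its activation, had 173, 253 and 200.05 CPM against 267, 281 and 267 CPM. Its libraries did not overlap and were higher in DMEM plus fatty acids, where the spread was also small. Its means were 209 ± 40.4 and 272 ± 8.26 CPM (SD, n = 3 each), with a log2 difference of 0.38 ± 0.16 (SE).

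TIMP3 (chr22:32801705-32863041, plus strand), the inhibitor that binds the matrix and also blocks ADAM proteases, had 495, 722 and 738 CPM in RPMI plus B27 and 421, 499.9 and 475 CPM in DMEM plus fatty acids. The media overlapped because of RPMI plus B27 replicate 1, which lay below DMEM plus fatty acids replicate 2. Its means were 652 ± 136 and 465 ± 40.3 CPM (SD, n = 3 each), with a log2 difference of -0.49 ± 0.18 (SE). TIMP4 (chr3:12153068-12158912, minus strand), which is known for its expression in adult heart, had raw counts of 6, 2 and 0 in RPMI plus B27 and 3, 1 and 4 in DMEM plus fatty acids. The count of 0 allows up to 0.112 CPM, and no difference was detectable at this depth. TIMP1, TIMP3 and TIMP4 lie inside the synapsin genes SYN1, SYN3 and SYN2 on the other strand, and the strand setting of the counting is not given in the sources used here. No annotated exon base of TIMP1 or TIMP3 overlaps an exon of its host gene, whereas 10.3% of those of TIMP4 do. SYN1 had 20.4 to 28.7 CPM over all 6 libraries, and SYN2 and SYN3 reached at most 0.638 and 0.716 CPM. Of the TIMP2 exon bases, 6.52% overlap an antisense gene.

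ADAMTS1 (chr21:26835755-26845409, minus strand) differed more between replicate numbers than between media. It had 41.4, 57.7 and 92.2 CPM in RPMI plus B27 and 44.4, 83.3 and 111 CPM in DMEM plus fatty acids. The media overlapped, and replicate 1 was lowest and replicate 3 highest in both. Its means were 63.8 ± 26.0 and 79.7 ± 33.6 CPM (SD, n = 3 each), a log2 difference of 0.32 ± 0.38 (SE). The replicate numbers, which the choice of members did not use, were tested with medium as a term. ADAMTS1 passed (adjusted p = 0.0490, edgeR quasi-likelihood test, Benjamini-Hochberg), with log2 differences of 0.69 for replicate 2 and 1.24 for replicate 3 against replicate 1. It was the only one of 8 tested members to pass, where 0.844% of 16107 genes did. Its adjusted p ran from 1.95e-06 to 0.0661 over the alternatives, and the call was lost without RPMI plus B27 replicate 3 (0.0609) and without DMEM plus fatty acids replicate 3 (0.0661). TIMP1 had an adjusted p of 0.290 and MMP2 of 0.988 by the same edgeR test. The number of members called rose to 4 without RPMI plus B27 replicate 1 (MMP2, MMP14, TIMP1 and ADAMTS1), where 2165 of 16425 genes were called. Without DMEM plus fatty acids replicate 1 it was 2 (ADAMTS1 and CPA4), where 2484 of 16548 genes were called. With all libraries, 136 of 16107 genes were. Both of these smaller fits leave 1 residual degree of freedom, and nothing about the members is read from their counts.

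CPA4 (chr7:130293161-130324180, plus strand) showed the widest difference between media of the 8 tested members, and this difference is one reason it was chosen. Its raw counts were 776, 351 and 306 in RPMI plus B27 and 9, 28 and 35 in DMEM plus fatty acids. These correspond to 29.2, 14.9 and 11.4 CPM against 0.388, 0.936 and 1.04 CPM. The media lay far apart, since even the lowest RPMI plus B27 library was well above the highest DMEM plus fatty acids library. The means were 18.5 ± 9.44 and 0.787 ± 0.350 CPM (SD, n = 3 each), a log2 difference of -4.52 ± 0.50 (SE). Over the summed counts, scaled to library size, the ratio was 22.5. It describes the difference that CPA4 was partly chosen for and is no test. CPA4 sits in a cluster of carboxypeptidase genes, and the relatives given here had few counts. CPA5 had 1 count in all. CPA1, a pancreatic digestive enzyme, had 80, 47 and 36 raw counts in RPMI plus B27 and 30, 37 and 33 in DMEM plus fatty acids (log2 fold change -0.86, unadjusted p = 0.05005 by the edgeR test). TMEM209, a neighbour on the side of the gene start, had 384 to 875 raw counts and SSMEM1 0 to 3. The long noncoding LOC105375503, which overlaps CPA4, had 0 to 6.

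Among the 8 tested members, 6 were lower and 2 higher in DMEM plus fatty acids, with a median log2 difference of -0.57, where the median of all 16107 genes was 0.01 and 49.0% were lower. For the record, 2 of 8 members, CPA4 and MMP2, stood among the genes past an adjusted p of 0.05, beside 1.36% of all tested genes (1.07% in the lower direction). The fit blocked on replicate number had the same 2, beside 4.78% of genes (3.42% in the lower direction). These counts are no test of the members and nothing is read from them, because the list was chosen with this contrast known and CPA4 partly for it. Libraries of the media did not overlap for 5 of the 8 members, 4 of them lower, beside 25.6% of all genes and 12.8% in the lower direction. With single libraries left out, the log2 difference ran from -4.77 to -4.03 for CPA4, from -2.31 to -1.84 for MMP2 and from -2.42 to -1.71 for MMP14.

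The size of the difference was not the same in each replicate number. Each such value rests on 1 library per medium, and its variation was not tested. MMP2 had log2 differences of -3.08, -1.94 and -1.29 within replicates 1, 2 and 3, and MMP14 of -3.50, -1.84 and -1.004. CPA4 had -6.24, -4.00 and -3.46, and TIMP1 -1.11, -0.61 and -0.37. These 4 genes thus differed most in replicate 1 and least in replicate 3. TIMP3, with -0.23, -0.53 and -0.64, had its smallest difference in replicate 1. ADAMTS1 had 0.10, 0.53 and 0.27, MMP15 -0.37, -0.35 and -0.63, and TIMP2 0.63, 0.16 and 0.42. The summed fibroblast and stromal markers, at 8408, 5389.6 and 4339 CPM in RPMI plus B27 and 758, 1958 and 1809 CPM in DMEM plus fatty acids, had log2 differences of -3.47, -1.46 and -1.26. Those of the smooth muscle markers were -2.09, -0.64 and -2.17. The part of these cells in the values of the members was not tested.

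**Figure D2:**
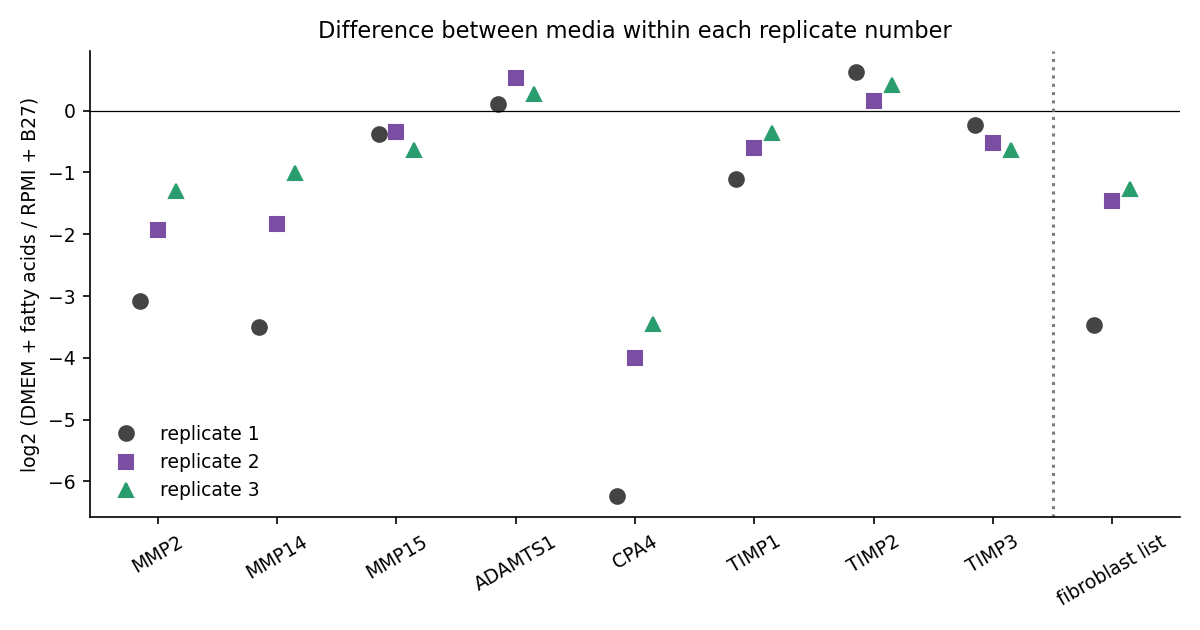
Log2 ratio of DMEM plus fatty acids to RPMI plus B27 (vertical axis) within each replicate number, for the 8 tested members and, right of the dotted line, for the summed CPM of the 12 fibroblast and stromal markers. Replicate 1 lies lowest for MMP2, MMP14, CPA4, TIMP1, ADAMTS1 and the fibroblast list (-3.47), and not for MMP15, TIMP2 or TIMP3. For ADAMTS1 all 3 values lie above 0.

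Levels were compared between genes per kilobase of annotated exon (GENCODE 29). In RPMI plus B27 the order of mean levels was MMP15 (272 ± 43.1 CPM per kilobase, SD, n = 3), TIMP3 (142 ± 29.6), TIMP1 (81.4 ± 9.29), TIMP2 (37.0 ± 7.17), MMP14 (22.7 ± 7.66), MMP2 (20.2 ± 5.32), ADAMTS1 (9.03 ± 3.68) and CPA4 (4.68 ± 2.39), with MMP9 and TIMP4 at no more than 0.145 and 0.137 in any library. The ranges of TIMP2 and MMP14, of MMP14 and MMP2, and of ADAMTS1 and CPA4 overlapped there. In DMEM plus fatty acids TIMP1 (52.0 ± 16.0) and TIMP2 (48.3 ± 1.47) overlapped, and ADAMTS1 (11.3 ± 4.76) came before MMP14 (5.56 ± 2.74) and MMP2 (4.80 ± 1.63) with overlapping ranges. MMP15 supplied 79.5% to 90.4% of the summed MMP2, MMP9, MMP14 and MMP15 level in RPMI plus B27 and 93.0% to 96.7% in DMEM plus fatty acids. TIMP3 supplied 48.4% to 58.0% of the summed TIMP level over all libraries. TIMP2 supplied 12.8% to 15.3% in RPMI plus B27 and 22.2% to 27.5% in DMEM plus fatty acids.

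Ratios within a library do not depend on its scaling. The ratio of MMP2 to TIMP2 per kilobase was 0.844, 0.429 and 0.435 in RPMI plus B27 and 0.0646, 0.101 and 0.133 in DMEM plus fatty acids. That of MMP14 to TIMP2 was 1.02, 0.452 and 0.466 against 0.0583, 0.114 and 0.174. Both ratios were lower in all 3 DMEM plus fatty acids libraries, without overlap. The ratio of MMP2 to MMP14 overlapped between media, at 0.830 to 0.949 and 0.764 to 1.11. That of MMP15 to TIMP3 stayed between 1.87 and 2.12 in all 6 libraries. The summed MMP to summed TIMP level was 1.14 to 1.33 in RPMI plus B27 and 0.978 to 1.10 in DMEM plus fatty acids.

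**Figure D3:**
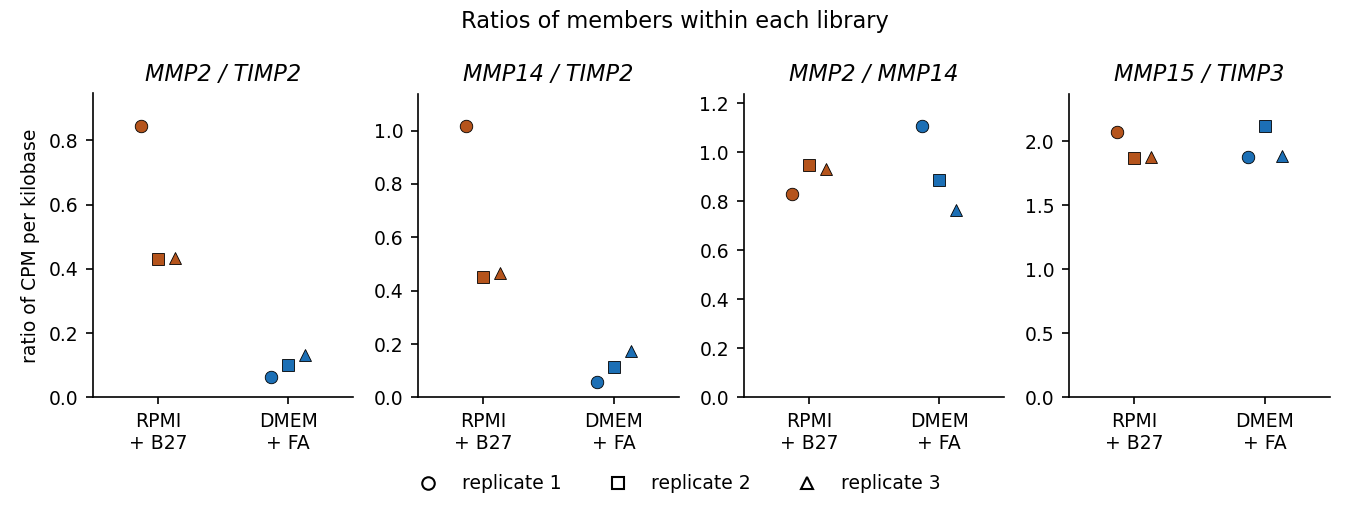
Ratios of CPM per kilobase within each library (vertical axes, linear, each from 0) for 4 pairs of members; symbols mark the replicate number and FA stands for fatty acids. MMP2 to TIMP2 and MMP14 to TIMP2 are lower in every DMEM plus fatty acids library, while MMP15 to TIMP3 lies between 1.87 and 2.12 throughout.

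Likeness of expression was measured as the root-mean-square distance between centred log2 CPM profiles over the 6 libraries. It includes the difference between media and is a description. The distance is small between any genes that vary little. Genes compared with a member averaged 10 CPM or more, a limit not set on the members themselves. MMP15 and TIMP3, from different families, were the closest member pair at 0.08 log2 units, followed by MMP2 and MMP14 at 0.17. MMP14 was also the closest to MMP2 of all genes compared, ahead of the collagen gene COL3A1 (0.23) and SYNPO (synaptopodin, 0.26), where the median distance was 1.14. Closest to CPA4 were TXNIP (thioredoxin-interacting protein, 0.26), TGFBI (0.29) and the sulfatase gene SULF1 (0.32), with a median of 2.30 over all genes. Closest to TIMP1 were SLC2A13 (0.07), ECE1 (endothelin-converting enzyme, 0.09) and the lysosomal protease gene CTSB (0.09), where the median was 0.51. TIMP4 was too low for this comparison.

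Beyond the members, 103 genes were listed by role in matrix proteolysis, with the 3 synapsin host genes among them, and 80 were tested. The list was written with earlier results of these data known, so the shares below are no independent test. Of the 80, 6 fell in DMEM plus fatty acids and 0 rose (7.5%, beside 1.36% of all genes and 1.07% in the lower direction). In all, 59 of 80 were lower, where 49.0% of all genes were. Their median log2 fold change was -0.51, beside 0.01 for all genes. Blocked on replicate number, 13 fell and 0 rose, beside 4.78% of all genes and 3.42% in the lower direction. Without RPMI plus B27 replicates 1, 2 and 3 in turn the count was 0, 0 and 4, beside 30, 4 and 131 over all genes. Without DMEM plus fatty acids replicates 1, 2 and 3 it was 1, 1 and 0, beside 11, 12 and 3 over all genes. With all libraries, 219 genes were called. Each of the 6 genes kept its call in 1 of those 6 fits.

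Of 19 other metalloproteinases 8 were tested. MMP19, a secreted enzyme of broad specificity, fell. Its counts were few, 30, 30 and 14 in RPMI plus B27 and 1, 2 and 3 in DMEM plus fatty acids. Scaled to library size, the summed counts had a ratio of 13.9, with a 95% exact interval of 6.11 to 39.2 for counting error. Its adjusted p was 0.0378 by edgeR (0.000490 to 0.127 over its alternatives). MMP11 (stromelysin 3), the most abundant of them, had 27.2 ± 5.33 and 12.1 ± 3.02 CPM (SD, n = 3 each) and was called only with the block (edgeR adjusted p = 0.0637 without it and 0.0219 with it). MMP8, MMP20 and MMP27 had no count in any library.

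Of 12 tested genes of the ADAM family, 3 fell. Many, but not all, of this family are membrane-anchored enzymes that release receptors and growth factors from the cell surface. ADAM9 went from 196 ± 18.2 to 95.6 ± 8.60 CPM (log2 fold change -1.04 ± 0.13 SE, edgeR adjusted p = 0.0292, 2.39e-09 to 0.0965 over its alternatives). ADAM19 went from 351 ± 22.7 to 96.7 ± 41.7 CPM (-1.86 ± 0.29, edgeR adjusted p = 0.0402, 2.54e-07 to 0.116). ADAM12 went from 2.39 ± 0.986 to 0.315 ± 0.137 CPM (-2.93 ± 0.49, edgeR adjusted p = 0.0442, 2.50e-05 to 0.165). The libraries did not overlap for any of the 3. The sheddases ADAM10 (-0.11 ± 0.11) and ADAM17 (0.18 ± 0.13) did not pass.

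None of 17 tested ADAMTS genes other than ADAMTS1 passed. With the block 2 did, both lower, beside 3.42% of all genes called lower. At an unadjusted p under 0.05 by edgeR there were 5. Here and below, the share of all genes at that unadjusted threshold is not given, so nothing is read from such counts. ADAMTS9, the most abundant, had 242 ± 54.1 and 151 ± 17.2 CPM (SD, n = 3 each, edgeR adjusted p = 0.124). Among 7 tested astacins, pappalysins and their enhancers 1 fell. PAPPA, which cuts binding proteins of insulin-like growth factors, went from 21.1 ± 5.05 to 2.14 ± 1.07 CPM (-3.28 ± 0.43 SE, edgeR adjusted p = 0.0292, 5.88e-13 to 0.0958 over its alternatives). BMP1, the procollagen C-proteinase, had -0.27 ± 0.24.

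In the carboxypeptidase family of CPA4, 9 of 16 other genes were tested and 0 passed, with 2 at an unadjusted p under 0.05 by edgeR. AEBP1, its most abundant relative here, had 302 ± 53.3 and 413 ± 112 CPM, and 5 of the 9 were higher in DMEM plus fatty acids. Among 7 tested inhibitors other than the TIMPs none passed (2 at an unadjusted p under 0.05 by edgeR, 1 with the block). The broad inhibitor A2M had 274 ± 15.03 and 174 ± 76.6 CPM.

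Of 8 tested genes of the plasminogen system, which activates several metalloproteinase precursors, 1 fell. SERPINE2 (protease nexin 1) went from 28.0 ± 6.44 to 11.6 ± 0.903 CPM (-1.27 ± 0.20 SE, edgeR adjusted p = 0.0405, 4.38e-06 to 0.132 over its alternatives). It was not called under scaling by library totals alone (0.0527). SERPINI1 (neuroserpin) had 45.2 ± 9.19 and 87.1 ± 36.3 CPM and did not pass. Neither the 4 convertases that activate membrane-type enzymes nor the 5 inducers and clearance receptors held a called gene, with 1 each at an unadjusted p under 0.05 by edgeR. FURIN had 168 ± 0.709 and 125 ± 8.73 CPM (edgeR adjusted p = 0.104), and BSG, an inducer of metalloproteinases, had 743 ± 84.8 and 815 ± 100.3 CPM (adjusted p = 0.702).

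**Figure D4:**
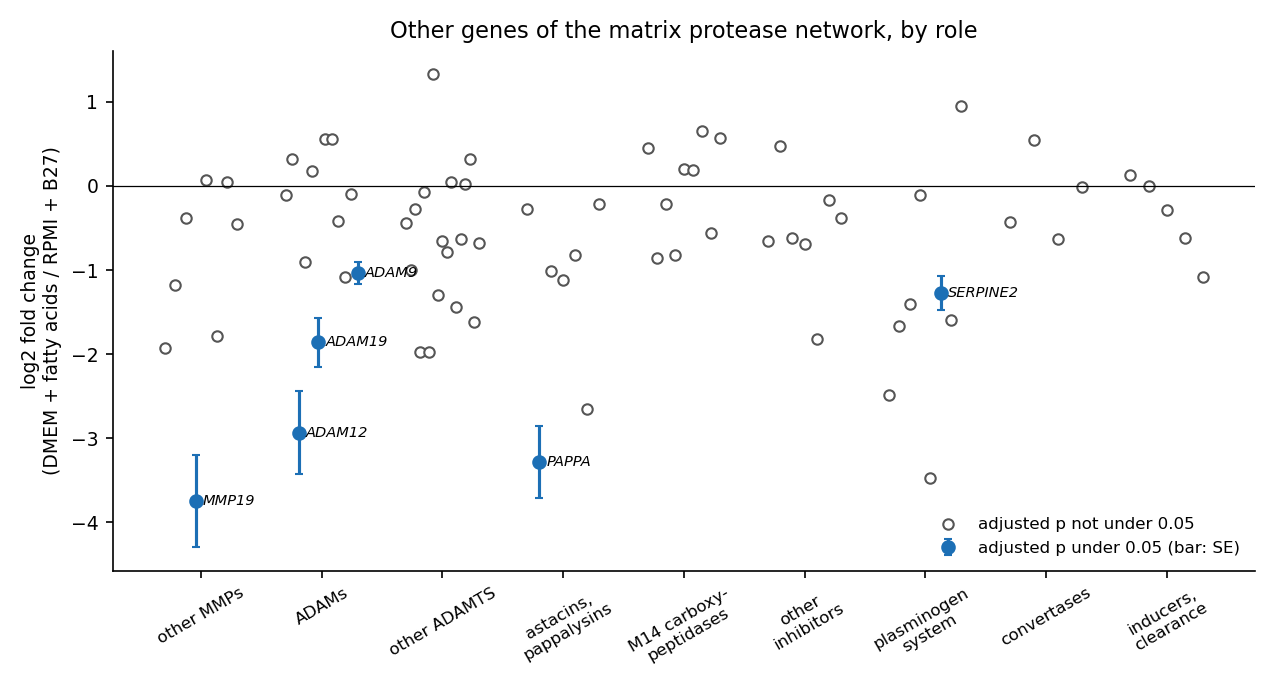
Log2 fold change between media (vertical axis, negative where lower in DMEM plus fatty acids) for the 77 tested genes of the other protease and inhibitor groups, by role; filled points with SE bars passed an adjusted p under 0.05 and open points did not. The 6 called genes, MMP19, ADAM9, ADAM12, ADAM19, PAPPA and SERPINE2, all lie below 0.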

How the data were processed

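RNA was sequenced in 6 cultures, 3 per medium. Each deposited file held the raw counts of 1 library by gene symbol. Per the submitters' processing notes, STAR, HTSeq and the build hg38 were used, with no versions. Annotation and strand setting are not given in the sources used here. Per the labels' protocols, libraries came from a stranded kit. Summary rows of the files (12.8% to 15.6% of each library) named no gene and were left out. Depth was 23232324 to 31035389 gene counts.

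Groups and replicate numbers came from the sample titles. Genes passing filterByExpr of edgeR 4.0.16 (minimum count 10, minimum total 15; 16107 genes) were scaled by TMM and tested with the quasi-likelihood test over all 6 libraries without covariates, with p values adjusted by Benjamini-Hochberg at 0.05. SEs are those implied by the F statistic. Replicate numbers were tested in a fit with medium as a term. Same-numbered libraries deviated together from their group means, correlating across genes at 0.31, 0.43 and 0.37, and differently numbered ones at -0.24 to -0.14. Deviations cancel within a group, so positive values for the same numbers partly force negative ones for the others. From the data and not the labels, the numbers were used as pairing the libraries in the replicate block and the replicate-number fit. The main fit between media did not use them. Alternatives were other scalings, no low-count filter, DESeq2 1.42.0, the replicate block and leaving out each library. The code was tested on simulated data. Gene coordinates and promoters are RefSeq, GRCh38.p14.

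The members, gene lists and tests were chosen with earlier results of these data known. Named genes are the members, called genes of the role lists, the most abundant gene of each role, the 3 profiles most like those of CPA4, MMP2 and TIMP1, the neighbours of CPA4 and the synapsin hosts. ADAM10, ADAM17, CPA1, MMP8, MMP20, MMP27, the marker genes named singly and genes in the closing section outside this rule were named after their values were seen. Some genes that the rule selects are not reported here.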

Additional observations from a re-analysis of the deposited data

How the results depend on the processing

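No member, and none of the 6 called genes of the role lists, changed direction under any of the 11 alternatives run. The member differences moved by less than the SD between replicates in each of them. Over all genes, the 219 calls between media became 539 with no low-count filter, 1212 with DESeq2 and 770 with the replicate block, and 3 to 131 when single libraries were left out. All 219 were among the calls of the first 3. For the role lists, the 6 calls became 13 with no low-count filter, 22 with DESeq2 and 13 with the replicate block, and 0 to 4 with single libraries left out. The 136 genes that differed between replicate numbers became 708 with no low-count filter, 1196 with DESeq2 and 142 to 2484 with single libraries left out, and members among them numbered 0 to 4. ADAMTS1 had log2 differences between media of 0.01 to 0.69 with single libraries left out. Scaling by total counts alone moved the median of all genes from 0.01 to 0.12 and changed the split of calls from 47 higher and 172 lower to 74 higher and 128 lower. The cause of these changes was not tested. Depth limits MMP9 and TIMP4, where 3 counts correspond to 0.0889 to 0.129 CPM.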

Other observations

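Of the 8 tested genes of the plasminogen system, 7 were lower in DMEM plus fatty acids, where 49.0% of all tested genes were. PLAT (tissue-type plasminogen activator) had 22.7 ± 16.8 and 4.05 ± 1.72 CPM (SD, n = 3 each). PLAU (urokinase) and its receptor PLAUR averaged 2.62 and 2.06 CPM in RPMI plus B27 and 0.818 and 0.765 CPM in DMEM plus fatty acids, and PLAT, PLAU and PLAUR did not pass with or without the block. These genes were picked after their values were seen.

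With the replicate block, the called genes of the role lists also held MMP24 (edgeR adjusted p = 0.0124 with the block, 0.176 without) and TLL1 (0.0237 and 0.0722). MMP24, a membrane-type enzyme, had 6.93, 25.3 and 26.7 CPM in RPMI plus B27 and 2.54, 7.36 and 7.08 CPM in DMEM plus fatty acids, so that replicate 1 was lowest in both media and the libraries overlapped.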
